A study of Danio rerio with 16 samples.

Results

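Levels of 4 genes were followed by sex in the brains of 4 strains of zebrafish: the insulin-like growth factors igf1 and igf2a, the activin subunit gene inhbaa and the hypoxia-responsive transcription factor epas1. These genes were picked by measured values of the same arrays, namely the male minus female difference within each strain label and the strain means over all 16 pools, so both are given here as a description and no test was made of them. All probe sets whose symbol in the platform's annotation is one of the 4 names were taken, out of 7922 probe sets. Of these, 5639 carry a single symbol and measure 4922 genes. One probe set detects igf1, 1 detects igf2a and 2 detect inhbaa, called first and second here by their mean level. No probe set carries the plain symbol epas1, which RefSeq lists as a synonym of epas1b, so epas1 was read as epas1b. The 2 probe sets of its paralog epas1a are described beside it and are likewise not tested.

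Brain RNA was hybridized to 16 Affymetrix arrays, with 2 pools of females and 2 pools of males per strain, each pool holding the brains of 2 to 5 adult fish of 4 to 6 months. The labels name the strains TM1 and SH (domesticated) and Nadia and Gaighatta (wild), all reared in 1 facility and all observed in a behavior assay before sampling. Between assay and sampling the fish were held for a week in tanks of a single sex and strain, and each tank gave a pool. Sex and this single-sex housing therefore cannot be told apart. TM1 is a transgenic strain with GFP under a β-actin promoter. In 16 of 16 arrays the values equal those that the study's table of strain differences prints under another strain name (within 0.0001 for all 1645 probe sets compared): TM1 in the labels is Gaighatta there and Gaighatta is TM1, and SH and Nadia are exchanged in the same way. GFP was at 8.58 to 10.46 in the 4 pools labelled Gaighatta and at most 3.36 in the others, so GFP stands with the printed name for these 4. Sex was the same in label and table for 16 of 16 arrays. Strains are called by their labels below. The sex differences within strains do not depend on which name is right, whereas the strain names and rearing histories do.

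Insulin-like growth factors are secreted peptides that act through a receptor tyrosine kinase and are held in check by binding proteins. igf1 is the main mediator of growth hormone, and igf2a is one of the zebrafish copies of the second ligand. The product of inhbaa is the βA subunit, which forms activin A as a dimer and inhibin when joined to the α subunit. Activins signal through serine/threonine kinase receptors and SMAD proteins, are bound by follistatin, and raise follicle-stimulating hormone in the pituitary. epas1 encodes HIF-2α, a subunit that is degraded in the presence of oxygen and that pairs with ARNT to activate hypoxia genes; in mammals it is abundant in endothelium.

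The igf1 level was higher in males in every strain label. Females labelled TM1 were at 4.52 and 4.48 and males at 4.82 and 4.57, on the log2 scale of the deposited values. Females labelled SH were at 4.13 and 4.57 and males at 5.05 and 5.31. Those labelled Nadia were at 3.54 and 3.57 in females and at 4.52 and 4.66 in males, and those labelled Gaighatta at 3.89 and 4.16 in females and at 5.14 and 4.55 in males. Both male pools thus lay above both female pools in 4 of 4 strain labels, although the ranges over all strains overlapped, since the highest female pool (4.57, SH) exceeded the lowest male one (4.52, Nadia). The mean was 4.83 ± 0.30 (SD, n = 8 pools) in males and 4.11 ± 0.41 in females, a difference of 0.72, or 1.65-fold. The difference was 1.03 (2.05-fold) in Nadia, 0.83 (1.78-fold) in SH and 0.82 (1.77-fold) in Gaighatta, and 0.20 (1.15-fold) in TM1. The SD between pools of one strain and sex was 0.22, so the TM1 difference lay within that spread and the other 3 exceeded it. The igf1 probe set read low, with a mean of 4.47 at percentile 16.8 of all probe sets, and no second one measures it. The largest difference rests on the Nadia females at 3.54 and 3.57, a level where array values respond less to changes in RNA. In bulk RNA, more cells of an expressing type and more RNA per cell cannot be told apart.

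The 4 pools per strain placed igf1 highest in SH (4.76 ± 0.52, SD, n = 4 pools), followed by TM1 (4.60 ± 0.15), Gaighatta (4.44 ± 0.54) and Nadia (4.07 ± 0.60). No neighbours in this order differed by more than the larger of their SDs, which hold the sex difference as well. Female pools spanned 3.54 to 4.57, with both Nadia pools lowest, and male pools 4.52 to 5.31, with an SH pool highest.

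**Figure D1:**
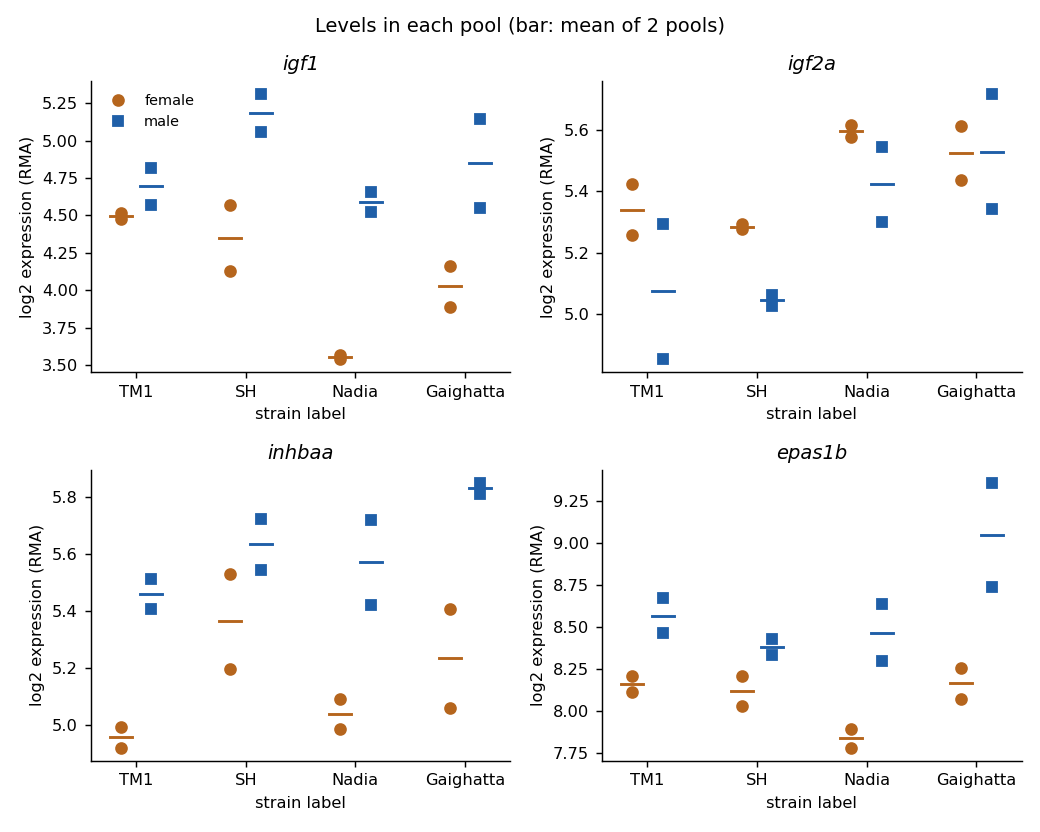
Log2 expression (vertical axis) of igf1, igf2a, inhbaa (first probe set) and epas1b in each of the 16 pools, by strain label (horizontal axis), with circles for female pools, squares for male pools and a bar for the mean of the 2 pools. For igf1, inhbaa and epas1b both squares lie above both circles in all 4 labels, whereas for igf2a both squares lie below both circles in SH and Nadia and the symbols overlap in TM1 and Gaighatta. The share of all probe sets that separate in some labels only was not counted, so the igf2a pattern is not read as a trait of that gene.

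Both probe sets of inhbaa were higher in males. With the first, females labelled TM1 were at 4.92 and 4.99 and males at 5.51 and 5.41, while females labelled SH were at 5.20 and 5.53 and males at 5.72 and 5.54. Nadia females were at 4.99 and 5.09 and males at 5.42 and 5.72, and Gaighatta females at 5.06 and 5.41 and males at 5.85 and 5.81. Male pools averaged 5.62 ± 0.17 (SD, n = 8) and female pools 5.15 ± 0.22, a difference of 0.48 or 1.39-fold. The difference ran from 0.27 in SH, where the second female and second male pools were nearly equal, to 0.60 in Gaighatta, against an SD of 0.15 between pools of one group.

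The second probe set read between 2.74 and 4.30, close to the lowest value of the whole table (2.27), where array values respond less to changes in RNA. It was at 3.73 ± 0.33 (SD, n = 8 pools) in males and 3.20 ± 0.26 in females, a difference of 0.53 or 1.44-fold. Its strain differences ran from 0.34 in Nadia to 0.82 in Gaighatta, with an SD of 0.22 between pools of one group. Over the 16 pools both probe sets had a Pearson r of 0.80 and a Spearman rho of 0.82, given as a description since the sexes are contained in it. Strain means of the first probe set were 5.53 ± 0.37 (SD, n = 4 pools) in Gaighatta, 5.50 ± 0.22 in SH, 5.30 ± 0.33 in Nadia and 5.21 ± 0.29 in TM1. Neighbours in that order differed by less than these SDs, and the second probe set gave a different order, with Gaighatta highest (3.80 ± 0.48), then Nadia (3.49 ± 0.23), SH (3.34 ± 0.38) and TM1 (3.23 ± 0.34).

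Levels of epas1b separated the sexes fully. Females were at 8.11 and 8.21 in TM1, 8.03 and 8.21 in SH, 7.78 and 7.89 in Nadia, and 8.07 and 8.26 in Gaighatta. Males were at 8.46 and 8.67 in TM1, 8.43 and 8.34 in SH, 8.29 and 8.64 in Nadia, and 8.74 and 9.35 in Gaighatta. The lowest male pool (8.29) thus lay above the highest female pool (8.26), a separation that 4 of the 7922 probe sets showed in this direction (0.0505%). Separation within each of the 4 strain labels, which igf1, both probe sets of inhbaa and epas1b share, was found in 20 probe sets (0.252%). Since the genes were picked by this difference, nothing is read from their standing against these shares. Male pools averaged 8.61 ± 0.34 (SD, n = 8) and female pools 8.07 ± 0.16, a difference of 0.54 or 1.46-fold. It was largest in Gaighatta (0.88), followed by Nadia (0.63), TM1 (0.41) and SH (0.26), against an SD of 0.20 between pools of one group. The second male pool labelled Gaighatta, at 9.35, stood apart from the other male pools, which reached 8.74, and without it the difference was 0.47. The strain means, from Gaighatta (8.60 ± 0.57, SD, n = 4 pools) through TM1 (8.36 ± 0.25) and SH (8.25 ± 0.17) to Nadia (8.15 ± 0.39), did not differ between neighbours beyond their spread.

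The paralog epas1a did not show this difference in its mean over strains. Its first probe set was at 6.09 ± 0.15 (SD, n = 8 pools) in males and 6.08 ± 0.23 in females, and its second at 5.02 ± 0.20 and 5.00 ± 0.24. Within strains the first probe set went both ways: males were higher by 0.37 in TM1 (6.11 against 5.74) and lower by 0.20 in SH (6.03 against 6.23), with no overlap of the pools in either. The share of all probe sets that separate in a single label was not counted, so nothing is read from that separation. The second probe set differed by 0.16 in TM1 and by -0.13 in SH, within its SD of 0.19. In Nadia the first was at -0.13 and the second at 0.19, and in Gaighatta they were at 0.0058 and -0.14. Over the 16 pools both probe sets of epas1a had a Pearson r of 0.35 and a Spearman rho of 0.14, so they did not run closely together. The sex differences of both paralogs were measured by different probe sets and were not tested against each other.

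The mean level of igf2a was lower in males in 3 of 4 strain labels. Females labelled TM1 were at 5.26 and 5.42 and males at 4.85 and 5.29, and females labelled SH at 5.28 and 5.29 and males at 5.06 and 5.03. Nadia females were at 5.58 and 5.62 and males at 5.30 and 5.55, while Gaighatta females were at 5.61 and 5.44 and males at 5.34 and 5.72. The means were 5.27 ± 0.28 (SD, n = 8 pools) in males and 5.44 ± 0.15 in females, a difference of -0.17, or 1.12-fold higher in females. It was -0.27 in TM1, -0.24 in SH, -0.17 in Nadia and 0.0031 in Gaighatta, and the SD between pools of one group was 0.17. Male and female ranges overlapped in TM1 and Gaighatta and over all strains. By strain the pools fell into a higher pair, Gaighatta (5.53 ± 0.17, SD, n = 4) and Nadia (5.51 ± 0.14), and a lower pair, TM1 (5.21 ± 0.25) and SH (5.17 ± 0.14). Only the step between these pairs exceeded the SDs, and the higher pair holds the strains labelled wild, which the printed table names TM1 and SH, the domesticated strains.

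**Figure D2:**
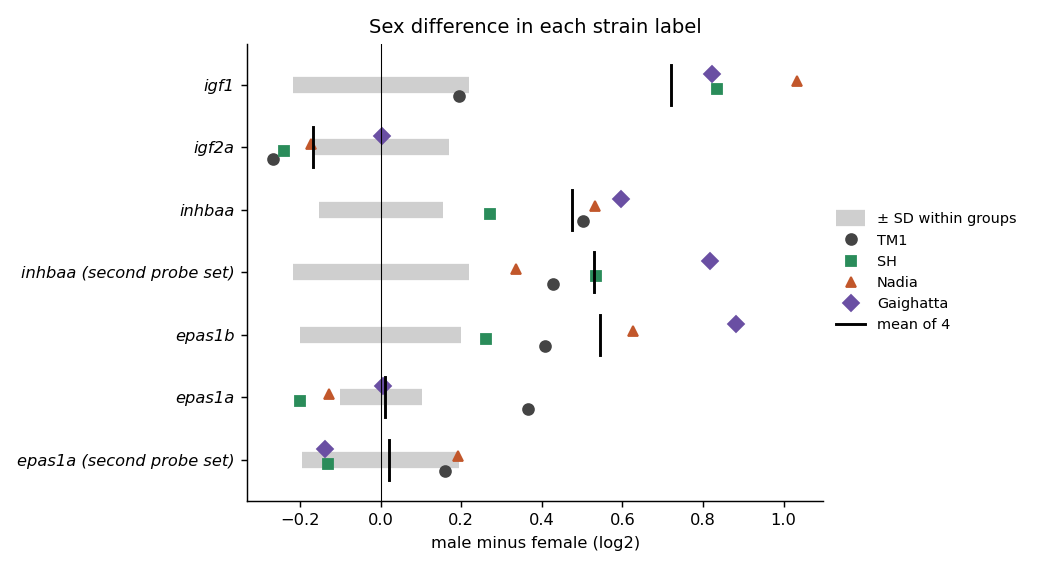
Male minus female difference on the log2 scale (horizontal axis) for each probe set of igf1, igf2a, inhbaa, epas1b and epas1a (vertical axis), with a symbol per strain label, a vertical bar for the mean of the 4 and a grey band for ± the SD between pools of one strain and sex. The means are 0.72 for igf1, 0.48 and 0.53 for inhbaa and 0.54 for epas1b, against -0.17 for igf2a and 0.01 and 0.02 for epas1a.

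Markers of other tissues differed in level between the pools. Of 16 pituitary symbols listed, 4 were measured (gh1, prl, pomca and cga), and all 4 had lower means in males, by 1.04 to 2.05. Their mean was 3.71 to 9.18 in female pools and 3.51 to 6.44 in male pools, highest in the females labelled SH (7.24 and 9.18) and Nadia (6.95 and 8.27). gh1, growth hormone, was lower in males by 3.95 in SH and by 3.46 in Nadia, against a difference of 0.05 in TM1 and -0.74 in Gaighatta. None of the 4 passed the sex test (limma adjusted p = 0.107 for cga, the lowest), and all 4 had an unadjusted p under 0.05. Over all probe sets 0.151% passed that test and 12.2% had an unadjusted p under 0.05. The mean of 6 markers of red blood cells was 6.87 to 7.80 in male pools and 6.67 to 7.40 in female pools. One of them, the β-globin hbba2, was higher in males by 1.91 (standard error 0.26, adjusted p = 0.00803), while hbaa1, an α-globin, differed by 0.16 (adjusted p = 0.482). In all, 5 of the 6 had higher means in males and 3 an unadjusted p under 0.05, the other two being alas2, an enzyme of heme synthesis, at 0.46 (adjusted p = 0.132) and slc4a1a, an anion exchanger, at 0.42 (adjusted p = 0.333). With the pituitary mean as a covariate the male minus female difference was 0.93 for igf1, 0.61 for inhbaa, 0.66 for epas1b and -0.13 for igf2a, and with the red cell mean it was 0.64, 0.48, 0.54 and -0.28. These fits were chosen after seeing the data, and the part of either tissue in the differences was not tested further. Of 6 endothelial markers, 0 differed by sex in limma (1 at an unadjusted p under 0.05). Their differences ran from -0.30 (cldn5a) to 0.12 (flt4) with a median of -0.05, and kdrl, a VEGF receptor, was at -0.03 and tie1 at -0.01. The mean of the 6 was 4.52 to 4.96 in female and 4.56 to 4.89 in male pools. Means of the 7 neuronal and 10 radial glial markers differed by -0.03 and -0.12, with snap25a, a synaptic protein, at 12.19 over all pools. Among the radial glial markers 0 passed (3 at an unadjusted p under 0.05), the lowest being the water channel gene aqp1a.1 at -0.41 (adjusted p = 0.101) and vim at -0.37 (adjusted p = 0.136). Markers of myelin (2), meninges (8) and microglia (9) had means that differed by 0.18, -0.01 and 0.08, with 0 called in each and 0, 1 and 1 at an unadjusted p under 0.05. The microglial mean hid opposite signs: it was 7.86 and 7.67 in the TM1 males, above all other pools, which were at 6.75 to 7.15. Of the 9 markers 7 had an unadjusted interaction p under 0.05, against 4.53% of all probe sets, and 0 passed after adjustment in limma. For example, lcp1, an actin-bundling protein, was at 1.04 in TM1 and -0.69 in Gaighatta, and ctss2.1, a cathepsin, at 1.56 and -0.10. Not every marker had this pattern. apoeb was higher in males in both, at 10.36 and 10.04 against 9.90 and 9.86 in TM1, and at 9.55 and 10.57 against 9.26 and 9.23 in Gaighatta. apoc1 was at 10.60 and 10.48 in TM1 males and at 10.62 and 10.68 in TM1 females. The part of microglia in the differences was not tested, and without TM1 the male minus female difference was 0.90 for igf1, -0.14 for igf2a, 0.47 for inhbaa and 0.59 for epas1b.

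**Figure D3:**
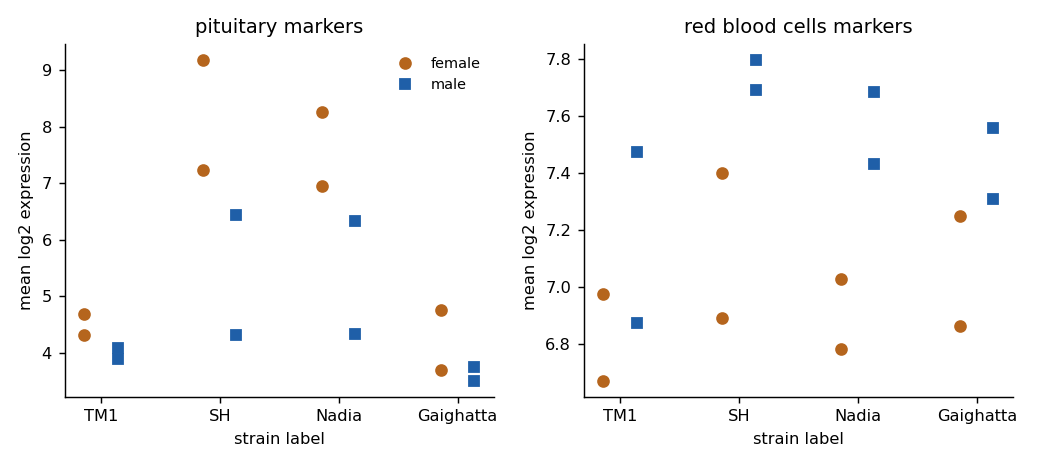
Mean log2 expression (vertical axis) of 4 pituitary markers (left) and 6 red blood cell markers (right) in each pool by strain label (horizontal axis), with circles for female and squares for male pools. Pituitary markers reach 9.18 in a female pool labelled SH and 6.44 in the highest male pool, and red cell markers reach 7.80 in a male pool and 7.40 in the highest female pool.

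The remaining genes of the IGF and insulin axis were tested. They were listed for their pathway rather than picked by their values, although earlier results of these data were known when the lists were made. Of 57 listed symbols 22 were measured, and of the 20 other than igf1 and igf2a, 0 differed between the sexes in limma (2 at an unadjusted p under 0.05), against 12 of 7922 probe sets overall (0.151%), 10 of them higher in males (0.126%) and 2 lower (0.0252%), and 970 at an unadjusted p under 0.05 (12.2%). Their differences ran from -0.19 to 0.22 with a median of -0.04, and that of all probe sets was -0.02. With 1 probe set per gene, that of highest mean, the smallest p values belonged to foxo3a, a transcription factor restrained by insulin and IGF signaling, at -0.19 (standard error 0.08, adjusted p = 0.367), to igfbp3, a binding protein, at -0.15 (standard error 0.07, adjusted p = 0.403), and to igf2b, the second igf2 copy, at 0.17 (standard error 0.10, adjusted p = 0.479). The igf2b mean hid opposite signs, with -0.49 in SH against 0.43 in TM1, 0.30 in Nadia and 0.43 in Gaighatta (limma interaction test, unadjusted p = 0.0145, adjusted p = 0.813). The other 2 probe sets of foxo3a were at -0.17 (adjusted p = 0.471 and 0.369). The probe set of igfbp1a, another binding protein, with the lower mean was at 0.32 (standard error 0.12, unadjusted p = 0.0198, adjusted p = 0.341), outside the range above, and its first at 0.22 (adjusted p = 0.493). The measured receptor gene igf1rb was at -0.02 (standard error 0.10), and the growth hormone receptors ghra and ghrb at -0.04 each. SH went against the other labels for igf1rb (0.52, against -0.33 in Nadia, -0.13 in Gaighatta and -0.12 in TM1). It did so for ghrb as well (-0.40, against 0.07 in TM1, 0.06 in Nadia and 0.10 in Gaighatta). The limma interaction test gave an unadjusted p of 0.0458 for igf1rb and 0.0286 for ghrb (adjusted p = 0.993 for each).

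Among strains, 3 of these 20 genes differed (15%) at their probe set of highest mean, against 34.6% of all probe sets. For insra, an insulin receptor gene, that probe set did not pass (0.24, adjusted p = 0.0871). Another insra probe set, at a mean level of 3.88, differed by 0.97 (adjusted p = 0.000253), and a further one passed in at least 1 contrast (lowest adjusted p = 0.0442). igfbp2a, a binding protein, was 8.07 in Gaighatta, 7.75 in Nadia, 7.60 in SH and 7.11 in TM1, a largest difference of 0.96 (standard error 0.13, adjusted p = 8.31e-05). grb10a, an adaptor that dampens insulin and IGF receptors, followed the same order from 7.33 to 6.45 (0.89, adjusted p = 0.0125). Its second Gaighatta male pool was at 8.22 and the other 3 Gaighatta pools at 6.95 to 7.20, and without that pool the largest difference was 0.59 (adjusted p = 0.0211). igfbp5b differed by 0.48 between Gaighatta and SH (adjusted p = 0.0427), a call that was lost in 7 of the 16 fits that each left out 1 pool. Differences in probe sequence between strains were not separated from expression in any comparison of strains, while the sexes were compared within strains.

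Of 40 symbols of the activin and inhibin axis 11 were measured, and of the 10 other than inhbaa, 0 differed between the sexes in limma (1 at an unadjusted p under 0.05). That gene was cga, the α subunit of pituitary glycoprotein hormones, at -2.05 (standard error 0.43, adjusted p = 0.107). It is also one of the pituitary markers above, and it was called in a model without the interaction (adjusted p = 0.0451). Next came acvr2ba, an activin receptor, at -0.23 (standard error 0.11, adjusted p = 0.409), whose second probe set was at -0.08, and inhbb, the βB subunit, at 0.19 (standard error 0.10, adjusted p = 0.429). inhbb was at 4.88 in females and 5.07 in males, with the Gaighatta males at 5.15 and 5.65 and the highest female pool, in TM1, at 5.17. The activin antagonist fsta was at -0.02, and the SMAD genes smad3b and smad7 at -0.09 and -0.06. Their median was -0.08. By strain 2 of 10 differed (20%): acvr1l, a type I receptor, at 0.46 between Gaighatta and TM1 (adjusted p = 0.0138), and cga at 2.85 between SH and Gaighatta (adjusted p = 0.0376), which passed in 11 of the 16 fits without 1 pool. inhbb differed by 0.37 (adjusted p = 0.145). The second probe set of acvr2ba, at a mean level of 3.35, differed by 0.54 (adjusted p = 0.0239), while its first did not pass (0.31, adjusted p = 0.204). Over all probe sets the share that differed by strain was 34.6%.

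Of 64 symbols of the hypoxia response 22 were measured, and of the 20 other than epas1b and epas1a, 0 differed between the sexes in limma (5 at an unadjusted p under 0.05), with a median difference of -0.04. hif1al2, a HIF-1α-like gene, was at 0.24 (standard error 0.08, adjusted p = 0.333), cxcl12a, a chemokine, at -0.23 (standard error 0.08, adjusted p = 0.333), and p4ha1b, a collagen prolyl hydroxylase, at -0.21 (standard error 0.08, adjusted p = 0.333). For hif1al2 the sign was reversed in SH (-0.22), against 0.16 in TM1, 0.55 in Nadia and 0.46 in Gaighatta (limma interaction test, unadjusted p = 0.0240, adjusted p = 0.993). arnt2, a partner of HIF-α subunits, was at -0.25 (standard error 0.11, adjusted p = 0.398), and hif1ab, an α subunit, at -0.08. The target genes vegfaa, ldha and bnip3 were at 0.11, -0.15 and -0.12. gapdh, a glycolytic enzyme, had a difference of -1.30 (standard error 0.52, adjusted p = 0.362), and its pools spanned 6.43 to 11.93, with the TM1 females alone at 11.34 and 8.61.

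By strain 7 of the 20 differed (35%), close to the 34.6% of all probe sets, so the count is not read as a trait of this list. ldha, lactate dehydrogenase A, was 8.46 in Gaighatta, 7.83 in SH, 7.82 in Nadia and 7.60 in TM1, so that the extremes lay 0.86 apart (standard error 0.14, limma adjusted p = 0.000357). The others were bnip3, a mitophagy receptor (0.52, adjusted p = 0.00321), kdrl (0.49), bnip3lb (0.38), hif1ab (0.35), vegfaa (0.33) and angptl4 (0.62), with adjusted p from 0.0171 to 0.0415. Another bnip3lb probe set, at a mean level of 6.11, did not pass (0.22, adjusted p = 0.238). Without single pools, ldha and bnip3 passed in all 16 fits, kdrl and hif1ab in 14, bnip3lb in 13, angptl4 in 10 and vegfaa in 9. The gap in gapdh (2.13, adjusted p = 0.0932) and in tfa, transferrin (0.98, adjusted p = 0.0766), did not pass. One TM1 male pool had tfa at 6.50 and the other 3 TM1 pools at 4.03 to 4.37, and without it the largest difference was 0.44. Each passed in 1 of the 16 fits, gapdh without the first Gaighatta female pool (2.85) and tfa without the first TM1 female pool (1.23). No gene of the 3 lists passed the test of an interaction between sex and strain, which 6 of 7922 probe sets did (0.0757%). At an unadjusted p under 0.05 the interaction held 3, 1 and 1 genes of the IGF, activin and hypoxia lists, against 359 of all probe sets (4.53%). They were igf2b, igf1rb and ghrb in the IGF list, fstl1b in the activin list and hif1al2 in the hypoxia list.

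**Figure D4:**
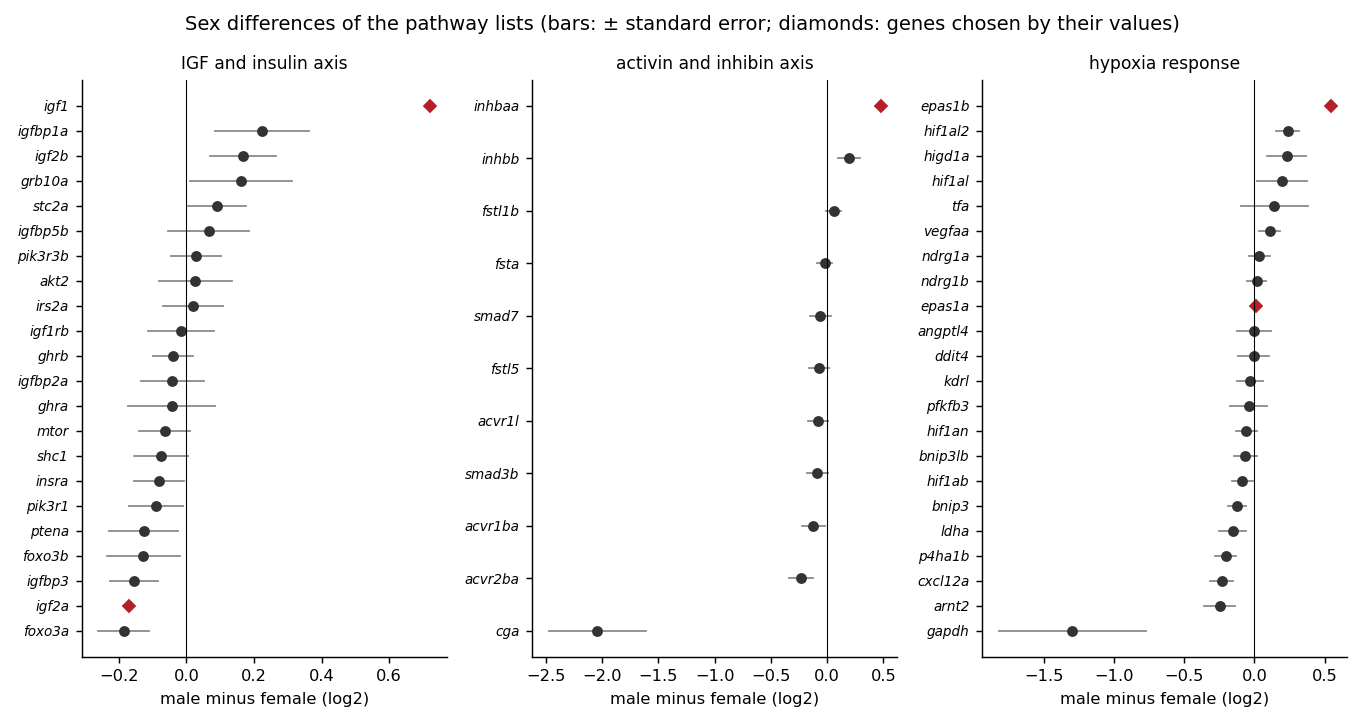
Male minus female difference on the log2 scale (horizontal axes, which differ in range) for the measured genes of the 3 lists (vertical axes), with bars for ± the standard error. Diamonds, which carry no error bar, mark the genes chosen by their values and the paralog epas1a, which was not so chosen. igf1 (0.72), inhbaa (0.48) and epas1b (0.54) stand at the top of their lists, where the highest other genes are igfbp1a at 0.22, inhbb at 0.19 and hif1al2 at 0.24. Since igf1, igf2a, inhbaa and epas1b were chosen by this difference, nothing is read from the place of the diamonds. The igfbp1a probe set of lower mean, not drawn, was at 0.32.

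The pools of one strain and sex offered a comparison that the choice of genes did not use. For each of 8 such pairs the difference between pool 1 and pool 2 was taken, and the 6 pairs of genes were correlated over these 8 differences. Which pool of a group is numbered 1 is arbitrary, and exchanging the numbers in a group changes r, rho and p. These values therefore hold only for the numbering in the labels, a choice that the permutation does not cover. Whether both genes of a pair differed in the same direction does not depend on it. The differences of igf1 and igf2a had a negative correlation (Pearson r = -0.80, exact permutation p = 0.0161, adjusted p = 0.0969; Spearman rho = -0.83, exact p = 0.0154, adjusted p = 0.0923), so the relation did not pass after adjustment, and in 3 of the 8 groups both genes differed in the same direction. Without the 2 differences farthest from the median of igf1, r was -0.86. igf2a and epas1b had r = 0.59 and rho = 0.60 (exact permutation p = 0.114 and 0.132), and 0.90 without the 2 farthest. igf1 and epas1b had r = -0.67 and rho = -0.38 (exact permutation p = 0.0781 and 0.360), and -0.27 without the 2 farthest. The other 3 pairs had r of -0.44 to 0.54 (exact permutation p = 0.163 to 0.750) and rho of -0.43 to 0.60 (exact permutation p = 0.132 to 0.665). Over the 5 pairs other than igf1 with igf2a, the adjusted p ran from 0.228 to 0.750 for r and from 0.265 to 0.665 for rho. Both genes differed in the same direction in 7 of the 8 groups for igf2a with epas1b. That count was 6 for igf1 with inhbaa and for inhbaa with epas1b, 5 for igf2a with inhbaa and 4 for igf1 with epas1b. These counts of direction were not tested. The igf1 and inhbaa levels, both higher in males, had r = 0.54 within groups and 0.38 without the 2 farthest.

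**Figure D5:**
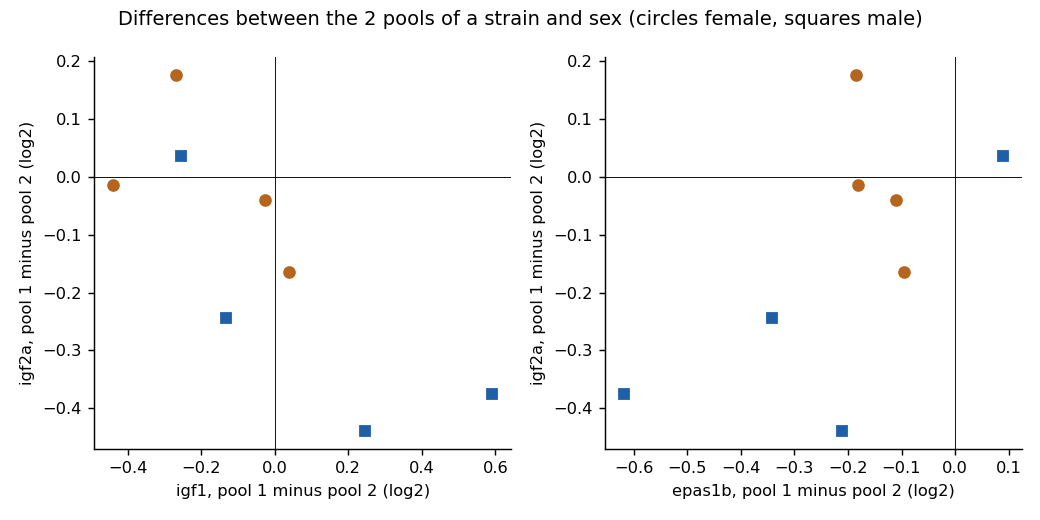
Difference between the 2 pools of one strain and sex on the log2 scale for igf2a (vertical axes) against igf1 (left) and epas1b (right), with circles for female and squares for male groups, 8 points each. On the left the points run downward (r = -0.80) and on the right upward (r = 0.59), neither passing the adjusted test. Both r values depend on which pool of a group is numbered 1.

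Other genes whose levels ran most like these were ranked over the 16 pools by Pearson r among 4917 genes, without a test, since they are the extremes of that ranking and share the sex and strain differences. Closest to igf1 was dio2, which converts thyroxine to its active form, with r = 0.90 and a male minus female difference of 1.63. It was followed by keap1a (0.87), a sensor of oxidative stress, leo1 (0.81), a subunit of the PAF1 complex, tpgs1 (0.81) and yars1 (0.80), a tRNA synthetase. Lowest were tfpia (-0.90), an inhibitor of coagulation, and pdcd4a (-0.87), a repressor of translation. Closest to epas1b was mapk4 (0.92), an atypical MAP kinase, then the sulfotransferase genes sult2st2 (0.86) and sult2st1 (0.83), oaz2b (0.81), an antizyme of polyamine synthesis, and nme5 (0.80). Lowest were another probe set of pdcd4a (-0.93) and vim (-0.87), the intermediate filament vimentin. Closest to inhbaa were mrps28 (0.84), a mitochondrial ribosomal protein, smc4 (0.84), a condensin subunit, pgam1a (0.83), a glycolytic enzyme, sult2st2 (0.78) and mid1ip1b (0.78), and lowest were zgc:174906 (-0.84) and smarca1 (-0.82), a chromatin remodeler. For igf2a the highest were praf2 (0.94), pwwp2a (0.90), atrxl (0.89), zgc:172295 (0.89) and ap1b1 (0.89), and the lowest ibtk and nutf2 (-0.90 each). The male minus female differences of these igf2a neighbours were -0.21 to -0.08 for the 5 highest. sult2st2 was thus among the 5 highest for both inhbaa and epas1b, and pdcd4a among the 2 lowest for both igf1 and epas1b.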

How the data were processed

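Brain RNA of 16 pools (8 of females, 8 of males) was analysed from the deposited table. Its values are log2 expression values that the authors made by RMA in the affy package (per the labels; no version stated), with background correction, quantile normalization and a summary per probe set. The authors removed unexpressed probe sets before deposit. Their methods also name a filter on variability and on probe-level polymorphism, neither of which the deposited table shows. Of 7958 probe sets, 36 AFFX controls were left out and 7922 tested. Of these, 7068 have an interquartile range under 0.5. The number of arrays limits the precision.

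A fully crossed model of strain and sex gave the sex and interaction tests, a model of strain alone the strain tests, with limma 3.58.1 in R 4.3.3, eBayes, and p adjusted by Benjamini and Hochberg over all probe sets, at a threshold of 0.05. A probe set differs among strains when at least 1 of 6 contrasts passes. Each list gene is represented by its probe set of highest mean. Members and lists were chosen with earlier results of these data known. Named were all probe sets of the 4 genes and of epas1a, each list's calls by sex or interaction, its 3 smallest p values by sex and 3 largest strain differences (arnt2, igfbp1a, and receptor, SMAD, follistatin and hypoxia target genes of the lists were added after their values were seen), and for each of the 4 genes the 5 highest and 2 lowest correlated genes. Steps were tested on simulated data. Pools of one strain and sex came from separate tanks, each holding a single sex. Correlations over 8 differences used an exact two-sided permutation test. Alternatives changed the probe sets tested, scaling, variance model, covariates, the representing probe set and the pools included. No batch is named in the sources used here. Same-numbered pools of a strain did not deviate together in all strains, so the numbers were not taken as pairs.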

Additional observations from a re-analysis of the deposited data

Results flagged for a closer look

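Among the 42 groups of 4 or 8 pools of the 7 probe sets of these genes, 1 pool stood apart by Dixon's criterion, which chance flags in about 1 in 20 groups. It was the second male pool labelled Gaighatta, where epas1b was at 9.35 while the other 7 male pools were at 8.29 to 8.74. The first probe set of epas1a differed in sign between strains, at 0.37 (male minus female) in TM1 and -0.20 in SH, with every male pool above the females in one and below them in the other. How many of all probe sets separate in this way was not counted, so nothing is read from the lack of overlap. The second probe set was at 0.16 and -0.13, within its SD of 0.19, and in Nadia the probe sets had opposite signs (-0.13 and 0.19). The sex difference of epas1a was not tested, because this paralog is only described beside epas1b, which was chosen by its values.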

How the results depend on the processing

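The male minus female differences of igf1, igf2a, inhbaa and epas1b kept their sign in each alternative run. Leaving out single pools gave 0.65 to 0.80 for igf1, -0.22 to -0.11 for igf2a, 0.43 to 0.52 and 0.46 to 0.60 for the probe sets of inhbaa and 0.47 to 0.62 for epas1b. The second inhbaa probe set moved beyond its SD to 0.31 by medians over 8 pools and to 0.78 with the pituitary covariate. The first probe set of epas1a, at 0.01, had the opposite sign in 8 of 26 alternatives, with -0.15 by medians and -0.11 without TM1, and the second in 6 of 26. By sex, 12 probe sets became 24 in the additive model (12 higher and 12 lower in males, against 10 and 2), 2 and 1 with the pituitary and red cell covariates chosen after seeing the data, and 7 to 118 without single pools. The extremes were 118 without TM1 M2 (37 higher and 81 lower), 21 without Gaighatta M1 (18 and 3), 20 without Nadia F1 (7 and 13), and 7 without TM1 F1, SH M1 or Gaighatta F1. The interaction count (6) was 1 and the strain count (2744) 663 among the 854 probe sets with an interquartile range of at least 0.5, and 0 to 31 and 2121 to 2807 without single pools. The interaction count was 0, 2, 1 and 17 without TM1 F1, F2, M1 and M2, 31 without Nadia F1, and 3, 2, 15 and 11 without Gaighatta F1, F2, M1 and M2.

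Among that smaller set, the strain counts of the IGF, activin and hypoxia lists were 0, 1 and 2, with fewer of their genes tested. Without single pools the IGF list had 2 to 4 by strain and 0 by sex, the activin list 1 to 2 by strain and 0 to 1 by sex, and the hypoxia list 3 to 11 by strain and 0 to 1 by sex. The sex calls were cga without TM1 M2 (adjusted p = 0.0468) or SH M2 (0.0486) and ldha without TM1 M2 (0.0467). The igfbp5b strain call was lost without TM1 F1, SH F1, SH F2, SH M1, Gaighatta F2, M1 or M2. The activin strain count fell to 1 without SH F1, SH M2 or Gaighatta F1, M1 or M2, through cga, and the hypoxia count was 11 without Nadia M2 and 3 without Gaighatta F2. Of the hypoxia calls, kdrl was lost without TM1 F1 or Gaighatta F1, hif1ab without Gaighatta F2 or M2, bnip3lb without TM1 F2 or Gaighatta F1 or F2, angptl4 without SH F1, F2 or M2 or Gaighatta F1, F2 or M1, and vegfaa without TM1 F2 or M1, SH F2, Nadia M1 or Gaighatta F2, M1 or M2. With the replicate number as a block, cga was called by sex (1 gene in place of 0, adjusted p = 0.0355), the hypoxia strain count was 11, and no other total moved by over 1.5 times, but the 12 calls by sex were 6 higher and 6 lower in males. Differences between pools 1 and 2 of females and males correlated at 0.16 in TM1, -0.07 in SH, 0.05 in Nadia and -0.18 in Gaighatta, with no common sign. Whether same-numbered pools of a single strain share a batch was not tested. The causes were not tested.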
